A study of Mus musculus with 12 samples.

Results

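The genes described here encode the neurofilaments and the neuronal microtubule cytoskeleton, namely Nefl, Nefm, Nefh, Ina, Map2, Mapt and Tubb3, together with Rbfox3, a nuclear splicing factor (the NeuN antigen) that is widely used as a marker of neurons. They were taken as the rows of the gene count matrix with exactly these symbols, which gave 8 genes of 39756 in the table. All 8 passed the low count filter that kept 17558 genes for testing. RNA was sequenced from the ischemic hemisphere of 12 C57BL/6J mice in 3 groups of 4, which by the methods of the study were young adult males. Sham mice had sham surgery and saline, Vehicle mice had transient middle cerebral artery occlusion (tMCAO, a filament stroke model followed by reperfusion) and received saline, and LJP mice had tMCAO and received Laminaria japonica polysaccharide (LJP), a polysaccharide from a brown seaweed that was given by gavage each day from before the surgery onwards. The hemisphere holds infarcted and spared tissue and all cell types together. All 12 libraries carry the same batch label, and the labels give neither the dose nor the sampling time of the sequenced mice, nor which mice shared a cage or surgery day. Library totals ran from 17960353 to 22216315 counts.

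Neurofilaments are the intermediate filaments of neurons. The light chain (Nefl) forms the core, the medium and heavy chains (Nefm, Nefh) carry long phosphorylated tails that set axon calibre, and alpha-internexin (Ina) is the fourth subunit in the central nervous system. Map2 binds microtubules in dendrites, tau (Mapt) binds them mainly in axons, and Tubb3 is the beta-tubulin isotype specific to neurons. Filament and tau proteins released from injured axons are measured in blood and cerebrospinal fluid after stroke, whereas the values below are transcript levels in tissue.

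Before the comparisons, 2 libraries stood apart. Vehicle mice 1 and 2 differed in counts from the other mice of their group with chi-square values, divided by the degrees of freedom, of 45.2 to 122, against 4.44 between Vehicle mice 3 and 4, 2.56 to 6.65 among Sham mice and 6.25 to 16.5 among LJP mice. Summed endothelial markers were at 918.6 and 1774 CPM (counts scaled to library size) in Vehicle mice 1 and 2, against 461.8 and 511.9 CPM in Vehicle mice 3 and 4. Cortical markers summed to 328.1 and 294.0 CPM in Vehicle mice 1 and 2, against 500.7 and 506.8 CPM in mice 3 and 4. Sham mice had 458.3 to 526.5 CPM. Choroid plexus genes summed to 21.55 and 19.59 CPM in Vehicle mice 1 and 2, against 529.4 and 485.0 CPM in mice 3 and 4. They varied widely among Sham (31.83 to 903.4 CPM) and LJP mice (21.79 to 386.2 CPM) too. Striatal sums did not split this way, at 860.3, 192.4, 769.4 and 570.7 CPM in Vehicle mice 1 to 4. Summed red blood cell genes were at 89.17 and 51.17 CPM in Vehicle mice 1 and 2, against 9.796 and 14.44 CPM in mice 3 and 4, and at 3.887 to 8.92 CPM in the other groups. Results that rest on these 2 mice are therefore given with and without them, an alternative chosen after the data were seen.

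The first comparison, Vehicle against Sham, asked how ischemia and reperfusion changed these transcripts. Of the 8 genes, 5 fell, Nefl, Map2, Ina, Mapt and Nefm, and none rose, by edgeR's quasi-likelihood test at an adjusted p below 0.05. Over all 17558 genes tested, 17.3% were called lower and 22.7% higher. In 6 of the 8, every Vehicle mouse lay below every Sham mouse, against 18.8% of all genes. The median log2 fold change of the 8 was -0.46, beside 0.00 over all genes tested. In whole hemisphere RNA, fewer neurons and less RNA per neuron cannot be told apart.

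**Figure D1:**
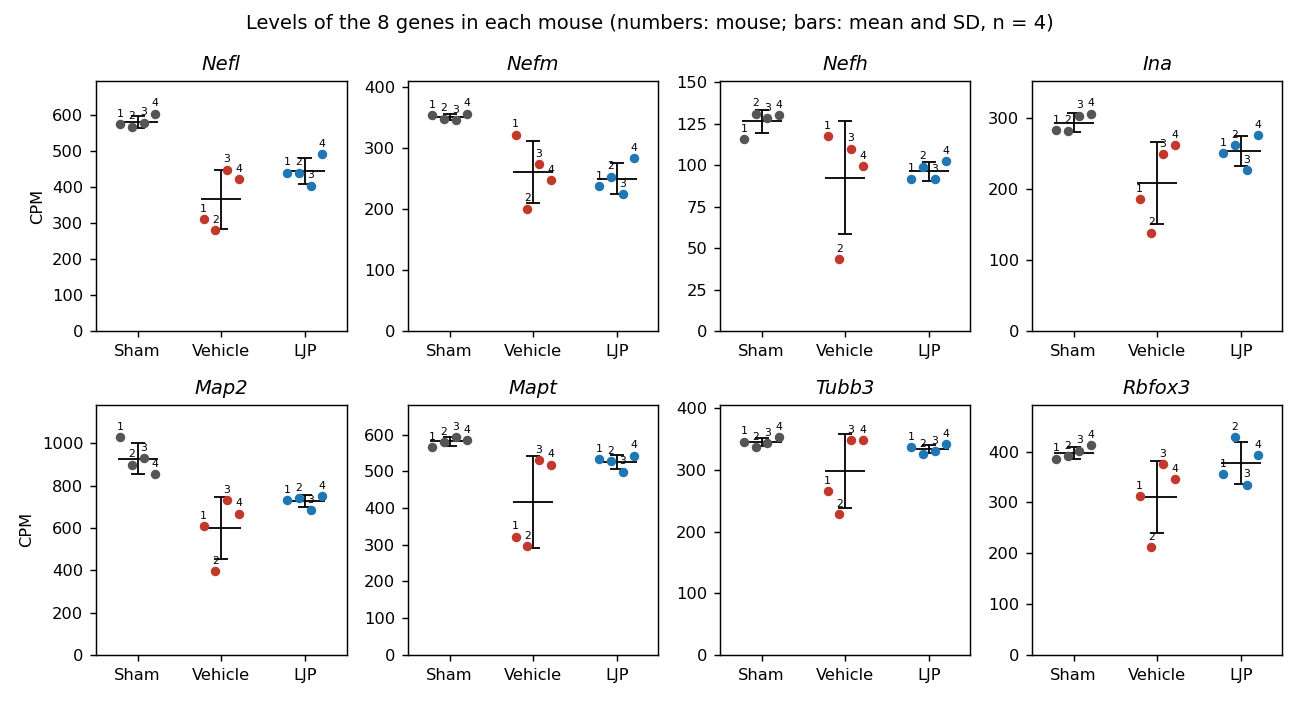
Level of each of the 8 genes in CPM (vertical axis, from 0, own scale per panel) in the 4 mice of the Sham, Vehicle and LJP groups. Numbers beside the points name the mouse, and bars give the mean and SD. Vehicle mouse 2 is the lowest mouse of its group in all 8 panels, and LJP mice lie below all Sham mice in every panel but Tubb3 and Rbfox3.

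Nefl, the light chain on which the other subunits assemble, had the most negative estimate in the fit of all mice, although Map2 was lower without Vehicle mouse 1 (-0.63 against -0.60) or Sham mouse 4 (-0.67 against -0.65), and Nefm without Vehicle mice 1 and 2 (-0.44 against -0.42). Its level was 573.5, 567.5, 578.5 and 603.4 CPM in Sham mice 1 to 4. In Vehicle mice 1 to 4 it was 310.3, 280.8, 448.5 and 422.9 CPM. All 4 Vehicle mice were below all 4 Sham mice, and mice 1 and 2 were the lower pair. The fitted change was -0.67 on the log2 scale (SE 0.13, adjusted p = 0.00267, edgeR), which is a fold of 0.63, and without Vehicle mice 1 and 2 it was -0.42 (adjusted p = 0.000391). The gene spans bases 68083863 to 68089095 of mouse chromosome 14 (plus strand), in the positions of the deposited table, which match GRCm38.

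Nefm, the medium chain, lies 30449 bases from Nefl on chromosome 14, from 68119545 to 68125004 on the minus strand. It was at 354.2, 348.7, 345.9 and 356.7 CPM in Sham mice, the narrowest spread of the 8 genes, with a coefficient of variation of 1.41%. In Vehicle mice it was at 322.2, 201.2, 273.4 and 247.7 CPM. Here the order within the group was different, since Vehicle mouse 1 was the highest and mouse 2 the lowest. The groups did not overlap, and the change was -0.43 (SE 0.12, adjusted p = 0.0154, edgeR). The first exon of Nefm overlaps the long noncoding RNA A230070E04Rik on the opposite strand, whose span holds 1095 of the 3334 bases of the main Nefm transcript. A230070E04Rik held 1640 to 2973 counts per mouse and had an estimate of -0.34 (adjusted p = 0.0935, edgeR). The sources used here do not say whether counting used strand, so reads of the shared bases cannot be told apart.

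Nefh, the heavy chain, did not pass the test. It was at 115.7, 131.0, 128.3 and 130.2 CPM in Sham mice 1 to 4. In Vehicle mice 1 to 4 it was at 117.7, 43.22, 110.0 and 99.31 CPM. Vehicle mouse 1 overlapped the Sham range while mouse 2 had the lowest level of all 12 mice. The estimate was -0.45 (SE 0.22, 95% interval -0.93 to 0.03, adjusted p = 0.124, edgeR). Without Vehicle mouse 2 the estimate was nearer to 0, at -0.22, yet it passed the test (adjusted p = 0.0358, edgeR), and without both Vehicle mice 1 and 2 it was -0.28 (adjusted p = 0.00973). Nefh (chromosome 11, 4938754 to 4948064, minus strand) overlaps Ap1b1, a clathrin adaptor gene, over 745 of 3994 transcript bases. Ap1b1 was at 320.6 CPM in Vehicle mouse 1 and at 194.8 to 247.3 CPM in the other 11 mice, and the part of these shared bases in the Nefh value of that mouse was not tested.

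Ina (chromosome 19, 47014681 to 47025327, plus strand) was at 282.2, 282.0, 303.0 and 305.7 CPM in Sham mice. Vehicle mice had 185.4, 138.6, 248.4 and 261.9 CPM, all below the lowest Sham mouse. The change was -0.49 (SE 0.16, adjusted p = 0.0277, edgeR). Its call was lost without Sham mouse 1 (adjusted p = 0.0540), Sham mouse 3 (0.0665), Sham mouse 4 (0.0623) or Vehicle mouse 1 (0.0706). It was also lost with Sham and Vehicle mice fitted alone (0.0712). Without Vehicle mouse 2 the fall was smaller, at -0.35, and without Vehicle mice 1 and 2 it was -0.21 (adjusted p = 0.0459, edgeR), both past the test. The span of Nt5c2, a nucleotidase gene, holds 477 of 3240 bases of the main Ina transcript, and Nt5c2 itself had an estimate of -0.07 (adjusted p = 0.376, edgeR).

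The pair of microtubule-binding proteins fell as well. Map2 (chromosome 1, 66175202 to 66442583, plus strand) was at 1028, 899.3, 930.4 and 853.6 CPM in Sham mice and at 607.8, 394.4, 733.1 and 667.5 CPM in Vehicle mice. Every Vehicle mouse was below every Sham mouse, and the change was -0.63 (SE 0.15, adjusted p = 0.00671, edgeR), or -0.41 without Vehicle mice 1 and 2 (adjusted p = 0.000583). Mapt (chromosome 11, 104229409 to 104332090, plus strand) was at 566.1, 580.4, 592.5 and 586.0 CPM in Sham mice. In Vehicle mice it fell into a low pair, 322.4 and 296.7 CPM in mice 1 and 2, and a pair much closer to Sham, 530.2 and 518.0 CPM in mice 3 and 4. The change of Mapt was -0.48 (SE 0.16, adjusted p = 0.0337, edgeR). That call depended on single libraries, with adjusted p from 0.0651 to 0.0745 without any one Sham mouse, 0.0885 without Vehicle mouse 1 and 0.0524 without Vehicle mouse 2. It was 0.0884 with Sham and Vehicle mice fitted alone. Without both Vehicle mice 1 and 2 the change of Mapt was -0.16 (adjusted p = 0.0377, edgeR).

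Tubb3 and Rbfox3 did not pass. Tubb3 (chromosome 8, 123411553 to 123422015, plus strand) was at 345.7, 337.1, 343.9 and 352.7 CPM in Sham mice and at 266.1, 228.9, 348.8 and 348.2 CPM in Vehicle mice. Vehicle mice 3 and 4 were inside the Sham range, and mice 1 and 2 were below it. The estimate was -0.21 (SE 0.12, 95% interval -0.46 to 0.04, adjusted p = 0.166, edgeR), and it was 0.01 with Vehicle mice 1 and 2 left out. Rbfox3 (chromosome 11, 118489760 to 118911597, minus strand) was at 386.4, 390.6, 402.1 and 412.8 CPM in Sham mice and at 312.5, 212.0, 375.2 and 345.6 CPM in Vehicle mice. Its groups did not overlap, but the edgeR test gave an adjusted p of 0.0673 (log2 fold change -0.35, SE 0.14). Without Vehicle mouse 3 the change was -0.46 and passed (adjusted p = 0.0237, edgeR). The estimate was -0.21 without Vehicle mouse 2 (adjusted p = 0.0697) and -0.15 without Vehicle mice 1 and 2 (adjusted p = 0.196, edgeR).

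**Figure D2:**
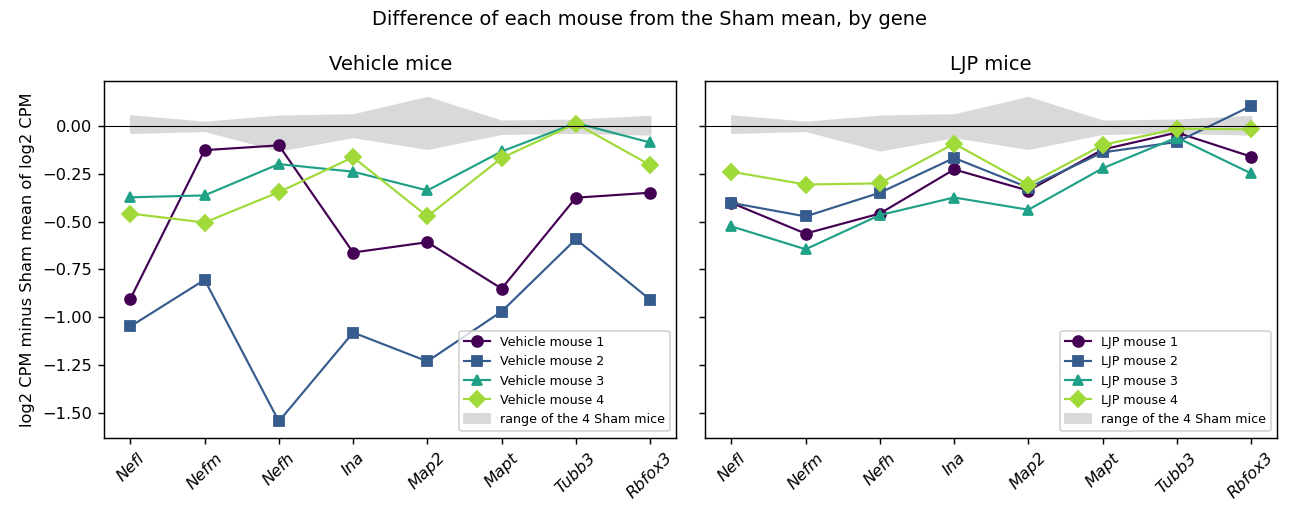
Difference of log2 CPM from the Sham mean (vertical axis) for each of the 8 genes (horizontal axis), with a line per Vehicle mouse at left and per LJP mouse at right and the range of the 4 Sham mice in grey. Vehicle mouse 1 is within or near the Sham range for Nefm and Nefh and well below it for Nefl, Ina, Map2 and Mapt, while the lines of the 4 LJP mice run close to each other.

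Compared mouse by mouse, Vehicle mouse 2 was lowest of its group in 8 of 8 genes, with differences from the Sham mean between -0.59 for Tubb3 and -1.54 for Nefh on the log2 scale. Vehicle mouse 1 was second lowest in 6 of the 8 genes and highest in the other 2, Nefm and Nefh. In Vehicle mouse 1 Nefl was at -0.90 and its chromosomal neighbour Nefm at -0.13 relative to the Sham mean. The summed level of the 8 genes was 3537 to 3652 CPM in Sham mice, 2444, 1796, 3068 and 2911 CPM in Vehicle mice 1 to 4, and 2795 to 3182 CPM in LJP mice. Without Vehicle mice 1 and 2, 6 of the 8 genes were called lower against Sham (Nefh in addition to the 5 above), with 14% of all genes tested called lower in that fit. With Sham and Vehicle mice fitted alone, 3 were called lower, Nefl, Map2 and Nefm, beside 11.6% of all genes. The median change of the 8 genes without Vehicle mice 1 and 2 was -0.24, so the fall was smaller in Vehicle mice 3 and 4 but was still called.

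Per kilobase of the exon length in the deposited table, Tubb3 led in Sham mice at 198.3 ± 3.70 CPM per kb (SD, n = 4). Nefl followed at 171.8 ± 4.67, Nefm at 108.8 ± 1.53, Ina at 90.03 ± 3.95 and Nefh at 31.63 ± 1.80 CPM per kb. Each neighbour in this order was separated by more than the SD of either. The order was the same in Vehicle mice, at 171.4 ± 34.7 CPM per kb for Tubb3, 108.2 ± 24.4 for Nefl, 80.84 ± 15.6 for Nefm, 64.04 ± 17.6 for Ina and 23.17 ± 8.45 for Nefh, but Nefm and Ina then differed by about their SD. In LJP mice Nefm was at 77.44 ± 7.92 and Ina at 77.76 ± 6.35 CPM per kb, so this pair no longer differed beyond its spread. Map2, Mapt and Rbfox3 were left out of the order, because their table lengths of 21915, 10131 and 25627 bases exceed those of their main transcripts, 6258, 1362 and 3150 bases.

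LJP against Vehicle asked whether the treatment changed these levels after tMCAO. None of the 8 genes passed edgeR's test, and none had an unadjusted p below 0.05 in it. That test called 0.0228% of all genes (4 genes, all lower), while 29.7% of all genes had an unadjusted p below 0.05. DESeq2, which called 2307 genes in this comparison, also called none of the 8. Estimates were above 0 for 7 of the 8 genes, while 50.2% of all genes had an estimate below 0. The groups overlapped in all 8, whereas over all genes 5.91% did not overlap with LJP lower and 5.77% with LJP higher. The comparison shares its Vehicle mice with the first, so a higher estimate here is not separate from a lower one there.

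In LJP mice 1 to 4, Nefl was at 439.7, 439.6, 403.8 and 492.2 CPM, between the Vehicle and Sham means. LJP mice overlapped Vehicle mice 3 and 4 and lay above mice 1 and 2. The estimate against Vehicle was 0.28 (95% interval -0.01 to 0.57, adjusted p = 0.180, edgeR). Mapt, at 533.9, 528.6, 499.1 and 543.1 CPM, had the highest estimate, 0.34 (95% interval -0.02 to 0.69, adjusted p = 0.184, edgeR). Without Vehicle mouse 3, both passed, Nefl with an adjusted p of 0.0459 and Mapt with 0.0489 (edgeR), in a fit that called 3857 genes. Without Vehicle mouse 2 the estimates were lower, at 0.17 for Nefl (adjusted p = 0.365) and 0.20 for Mapt (adjusted p = 0.378, edgeR). With Vehicle mice 1 and 2 both left out they were 0.025 and 0.004, and the median of the 8 genes was -0.004.

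For Ina, LJP mice had 250.5, 261.1, 226.2 and 275.2 CPM (estimate 0.28, 95% interval -0.07 to 0.63). Map2 stood at 733.1, 741.1, 683.8 and 749.3 CPM (estimate 0.28, 95% interval -0.05 to 0.60). For Rbfox3 the values were 356.3, 428.1, 335.3 and 393.4 CPM (estimate 0.28, 95% interval -0.03 to 0.59). Tubb3, at 337.1, 325.8, 330.9 and 341.7 CPM, was just below Vehicle mice 3 and 4 and above mice 1 and 2 (estimate 0.16, 95% interval -0.09 to 0.42). Adjusted p-values of these 4 genes ran from 0.206 to 0.350 (edgeR). Without Vehicle mouse 2 their estimates were lower, at 0.127 for Ina, 0.118 for Map2, 0.135 for Rbfox3 and 0.056 for Tubb3.

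Nefm and Nefh did not share the higher estimates. Nefm was at 237.9, 253.4, 224.9 and 284.3 CPM in LJP mice, within the range of the Vehicle mice (estimate -0.06, 95% interval -0.33 to 0.20, adjusted p = 0.749, edgeR). Nefh was at 91.93, 99.13, 91.37 and 102.6 CPM, with an estimate of 0.06 (95% interval -0.43 to 0.54, adjusted p = 0.877, edgeR). These signs rested on single Vehicle mice, since without Vehicle mouse 1 the Nefm estimate was 0.06 and without Vehicle mouse 2 the Nefh estimate was -0.18. With Vehicle mice 1 and 2 both left out, Nefh, Ina and Tubb3 had estimates of -0.12, -0.01 and -0.06, none called.

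**Figure D3:**
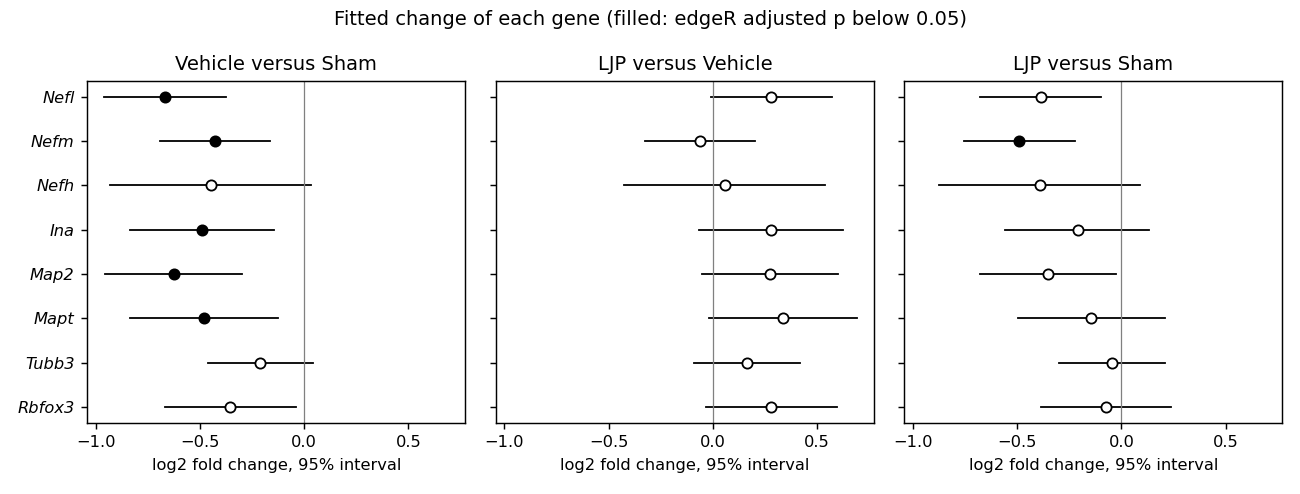
Fitted log2 fold change (horizontal axis) of each of the 8 genes in the 3 comparisons, with 95% intervals as lines and filled points for an edgeR adjusted p below 0.05. Filled points are the 5 genes that fell in Vehicle against Sham and Nefm in LJP against Sham, and none in LJP against Vehicle.

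The third comparison, LJP against Sham, asked what remained different from sham surgery under treatment. It shares Sham mice with the first comparison. Only Nefm passed in the fit of all 12 mice, at -0.49 (SE 0.12, adjusted p = 0.0395, edgeR), where 0.9% of all genes were called lower. The groups nevertheless did not overlap in 6 of the 8 genes, against 12% of all genes. These were Nefl, Nefm, Nefh, Ina, Map2 and Mapt, with LJP means at 76.4%, 71.2%, 76.2%, 86.4%, 78.3% and 90.5% of the Sham mean. Nefl had an estimate of -0.39 (adjusted p = 0.132), Nefh -0.39 (0.377), Map2 -0.35 (0.226), Ina -0.21 (0.525) and Mapt -0.14 (0.698, all edgeR). Tubb3 (-0.05, adjusted p = 0.878, edgeR) and Rbfox3 (-0.07, adjusted p = 0.838, edgeR) overlapped with Sham.

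How many of the 8 were called here turned on the Vehicle libraries, which enter the fit through the shared estimate of the spread. With Sham and LJP mice fitted alone, 6 of the 8 were called lower, with 11.8% of all genes called lower. With only Vehicle mice 1 and 2 left out, 6 were again called, with 12% of all genes called lower. In both fits these were the 6 genes whose groups do not overlap. The estimate of Nefl was -0.39 both in the fit of all mice and in that of Sham and LJP mice, where its adjusted p was 0.000355 (edgeR). Without Vehicle mouse 2 alone, Nefl (adjusted p = 0.0201), Nefh (0.00248) and Map2 (0.00602) passed in addition to Nefm, in a fit that called 2357 genes, 977 of them lower. The call of Nefm in the fit of all mice was itself lost without any one Sham mouse (adjusted p from 0.0995 to 0.113) and without LJP mouse 1 (0.107), 2 (0.0829) or 3 (0.141).

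Within each mouse, ratios of genes are free of library scaling and compare the filament chains with each other and with Rbfox3. The ratio of Nefm to Nefl counts was 0.591 to 0.618 in Sham mice and 0.541 to 0.578 in LJP mice, with no overlap. In Vehicle mice 1 to 4 it was 1.04, 0.717, 0.610 and 0.586, so Vehicle mouse 1 held slightly more Nefm than Nefl counts. On the log2 scale the mean of LJP minus that of Sham mice was -0.10 (exact permutation p = 0.0286, two-sided, the smallest that 4 against 4 allows, and 0.0857 adjusted over 9 ratio tests). LJP minus Vehicle was -0.35, also with no overlap (exact permutation p = 0.0286, adjusted 0.0857), and -0.17 without Vehicle mouse 1. Ina to Nefl was higher in LJP than in Sham mice by 0.18 (exact permutation p = 0.0286, adjusted 0.0857). Nefh to Nefl had a difference of -0.001 between these groups and an exact permutation p of 1.

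**Figure D4:**
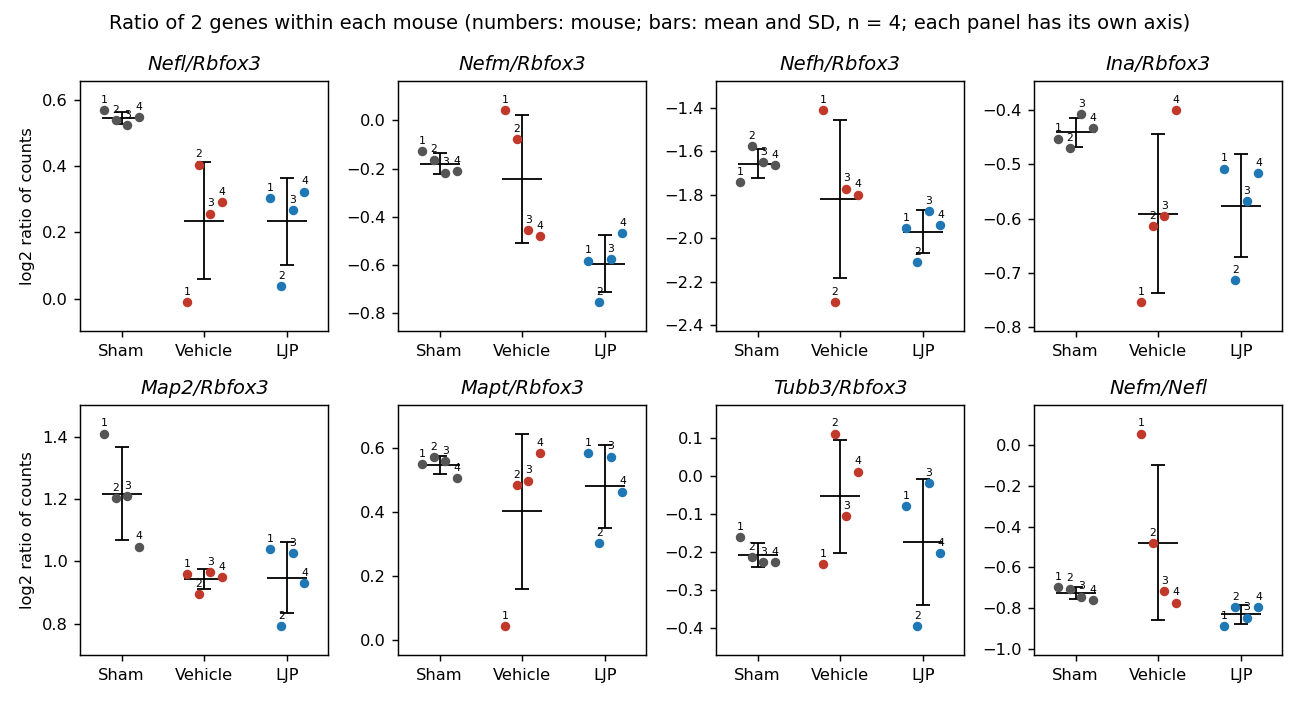
Log2 ratio of the counts of 2 genes in each mouse (vertical axis, own scale per panel) for 7 genes over Rbfox3 and for Nefm over Nefl, with numbers naming the mouse and bars for the mean and SD of 4 mice. The 4 LJP mice are below all Sham mice for Nefl, Nefm, Nefh, Ina and Map2 over Rbfox3 and within or around the Sham values for Mapt and Tubb3.

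Relative to Rbfox3, the filament genes and Map2 were lower in LJP than in Sham mice, with no overlap. How often other genes over Rbfox3 separate these groups was not counted, so the separation cannot be called particular to these genes. The mean log2 differences were -0.31 for Nefl, -0.42 for Nefm, -0.31 for Nefh, -0.14 for Ina and -0.27 for Map2. Each had an exact permutation p of 0.0286, the smallest possible, and 0.0857 adjusted over 21 tests, so none passed the correction. With that smallest p, no ratio could pass unless many of the 21 reached it. These ratios also share Rbfox3 and the same mice. Mapt (-0.07, exact permutation p = 0.457) and Tubb3 (0.03, exact permutation p = 0.8) overlapped. In Vehicle against Sham, Nefl (-0.31) and Map2 (-0.28) over Rbfox3 did not overlap with Sham (exact permutation p = 0.0286, adjusted 0.0857). All 4 Vehicle mice had Map2 over Rbfox3 ratios within an SD of 0.03 on the log2 scale, the narrowest of the 7 ratios in that group, although their Map2 levels ranged from 394.4 to 733.1 CPM.

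Upstream sequence was held by the RefSeq promoter table (GRCm38.p6, 250 bases before each start) for 4 of the 8 genes, Ina, Map2, Tubb3 and Rbfox3. These are shown because Ina and Map2 fell in Vehicle mice while Tubb3 and Rbfox3 did not pass the test. Capitals mark the GC box letters GGGCGG on either strand, the hexamer bound by Sp-family factors. The stretches are chr19:47014431-47014680 for Ina (plus strand), chr1:66175079-66175201 for Map2 (plus strand), chr8:123411303-123411423 for Tubb3 (plus strand) and chr11:118761042-118761291 for Rbfox3 (minus strand), read 5′ to 3′ in the direction of transcription, and those of Map2 and Tubb3 stop before the first base of the gene or exon annotation. The Rbfox3 window lies inside the span of the gene in the table, before an internal start.
Ina: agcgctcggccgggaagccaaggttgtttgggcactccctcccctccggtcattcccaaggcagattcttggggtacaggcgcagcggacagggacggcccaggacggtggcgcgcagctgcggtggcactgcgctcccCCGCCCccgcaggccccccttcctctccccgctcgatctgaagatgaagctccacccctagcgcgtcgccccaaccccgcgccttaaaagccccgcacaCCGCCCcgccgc
Map2: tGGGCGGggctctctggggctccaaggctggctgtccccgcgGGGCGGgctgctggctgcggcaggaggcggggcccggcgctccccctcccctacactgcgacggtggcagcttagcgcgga
Tubb3: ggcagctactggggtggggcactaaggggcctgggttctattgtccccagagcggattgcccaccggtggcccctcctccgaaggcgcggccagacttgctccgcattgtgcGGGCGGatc
Rbfox3: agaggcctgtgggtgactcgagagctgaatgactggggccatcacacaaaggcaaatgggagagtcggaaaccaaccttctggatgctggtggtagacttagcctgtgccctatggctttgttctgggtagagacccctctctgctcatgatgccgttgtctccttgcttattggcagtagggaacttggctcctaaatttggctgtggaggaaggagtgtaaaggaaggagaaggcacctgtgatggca
The full 250-base windows of Map2 and Tubb3 run past the printed stretches into annotated gene or exon, so their values are not of upstream sequence alone. In the full windows, GC content was 70.8% for Ina, 81.2% for Map2, 68.0% for Tubb3 and 52.8% for Rbfox3, beside a median of 52.4% over 32851 windows. Map2 held 5 GC boxes (2 in the printed stretch), Tubb3 2 (1 in the printed stretch), Ina 2 and Rbfox3 0, and 32.7% of all windows held at least 1. The TATA letters TATAAA were in none of the 4 windows and in 12.4% of all. E-box letters CANNTG occurred 2 times in Rbfox3 and 1 time in Ina, neither in Map2 nor in Tubb3, and in 66.2% of all windows. The cyclic AMP element TGACGTCA and the left part of the neuron-restrictive element, TTCAGCACC, were in none of the 4 (1.55% and 0.301% of all windows). The windows of Map2, which was called in Vehicle mice, and Tubb3, which was not, both held GC boxes and lacked TATAAA.

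The remaining cytoskeleton was described with lists of related genes, to be read beside the 17.3% of all genes called lower and 22.7% called higher in Vehicle against Sham. Of 30 other microtubule-associated proteins, 15 fell and 3 rose in Vehicle against Sham, with a median of -0.29. Stmn4, a neuronal stathmin that binds tubulin, fell by 0.40 on the log2 scale (adjusted p = 0.00210, edgeR). Dpysl3, a collapsin response mediator, rose by 0.66 (adjusted p = 0.00284, edgeR). The other 2 that rose, Mapre1 (0.37) and Map7d1 (0.25), were named after their values were seen, as were the large neuronal proteins Map1a (-0.52) and Map1b (-0.53), which fell.

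Among 13 other tubulins, 5 rose and 1 fell, with a median of 0.15, while Tubb3 itself did not pass. Tuba1c rose most clearly, from 11.95 ± 1.39 CPM in Sham to 60.77 ± 31.98 CPM in Vehicle mice (SD, n = 4, log2 fold change 2.35, adjusted p = 0.000224, edgeR). Tuba4a fell by 0.59 (adjusted p = 0.0341, edgeR). The other tubulins that rose were Tubb6 (3.59), Tubb2b (1.00), Tubb5 (0.36) and Tuba1b (0.34), named after their values were seen.

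The submembrane scaffold of spectrins, ankyrins, adducins and axonal adhesion proteins moved in the direction of the filaments, with 14 of 18 lower and none higher (median -0.49). Sptbn1, a beta-spectrin, fell by 0.46 (adjusted p = 0.00159, edgeR). Of 17 axonal transport motor genes 7 fell and none rose (median -0.21), with Kif5c, a neuronal kinesin heavy chain, at -0.47 (adjusted p = 0.00469, edgeR). Of 22 kinases and phosphatases that act on tau and neurofilaments, 15 fell and 1 rose (median -0.47). The one that rose was Mapk3, a kinase of the growth factor cascade, at 0.58 (adjusted p = 0.000376, edgeR). The calpain system, proteases that cut spectrin and neurofilaments, had 5 of 7 genes higher and none lower (median 0.81), with the smallest p for the small subunit Capns1, at 0.83 (adjusted p = 0.000547, edgeR). The others were Capn1, Capn2, Capn3 and the inhibitor Cast, named after their values were seen. Without Vehicle mice 1 and 2, the counts against Sham were 13 lower and 1 higher for microtubule-associated proteins, 1 and 8 for tubulins, 12 and 0 for the scaffold, 7 and 0 for motors, 14 and 1 for kinases and phosphatases, and 0 and 3 for calpains, beside 14% of all genes lower and 15.7% higher. With Sham and Vehicle mice fitted alone, they were 7 lower and 1 higher, 0 and 4, 8 and 0, 3 and 0, 11 and 1, and 0 and 4, in the same order, beside 11.6% of all genes lower and 19.1% higher.

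**Figure D5:**
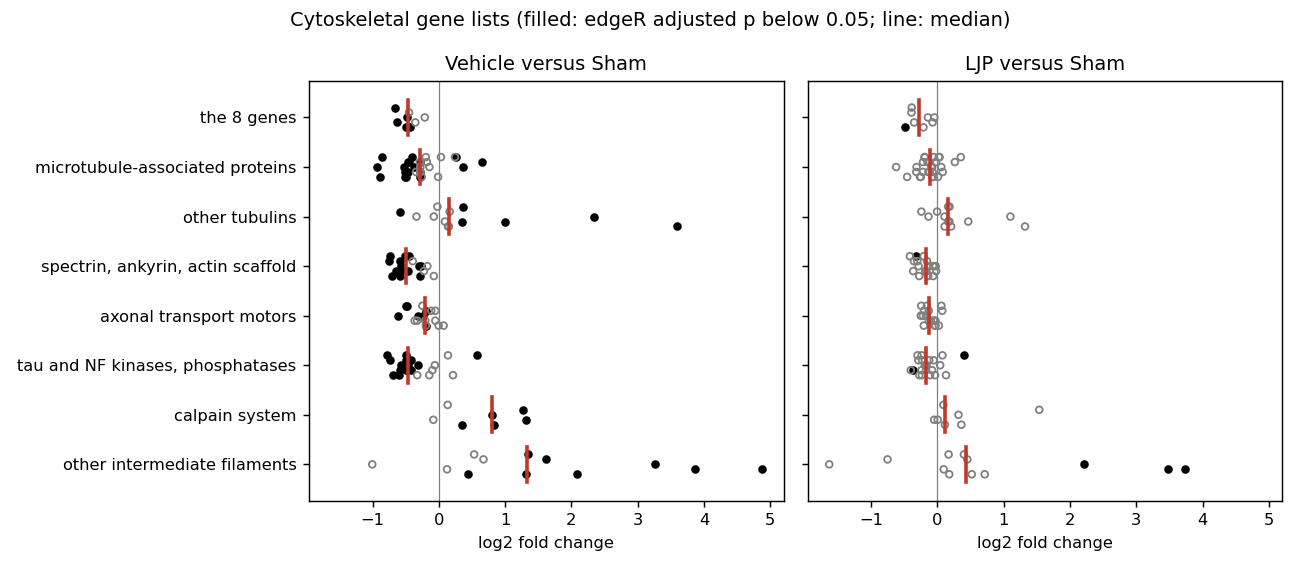
Log2 fold change (horizontal axis) of every tested gene of 8 lists in Vehicle against Sham (left) and LJP against Sham (right), filled where the edgeR adjusted p is below 0.05, with a line at the list median. In Vehicle mice the medians of the 8 genes, the scaffold and the kinases lie at -0.46 to -0.49, and that of the other intermediate filaments at 1.32.

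Of 12 other intermediate filament genes tested, most of them expressed by cells other than neurons, 8 rose and none fell in Vehicle against Sham (median 1.32). Gfap, the astrocyte filament, went from 141.2 ± 22.7 CPM in Sham to 2066 ± 604 CPM in Vehicle mice (log2 fold change 3.87, SE 0.28, adjusted p = 1.54e-05, edgeR). Vim (4.88) and Nes (3.26), filaments of reactive glia and progenitors, rose with it, as did Des (2.09), Synm (0.44) and the nuclear lamins Lmna (1.34) and Lmnb1 (1.31). Prph, a neuronal filament mostly of peripheral nerve, rose by 1.62 from a low level, 0.844 ± 0.266 to 2.60 ± 1.40 CPM, with overlap between the groups, and did not pass without Vehicle mice 1 and 2. The rest did not pass, at 0.53 for Sync, 0.12 for Lmnb2, 0.67 for Krt8 and -1.004 for Krt18. Without Vehicle mice 1 and 2, 6 of the 12 rose and none fell, with a median of 0.89.

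In LJP against Vehicle, no gene of any of these lists passed. Among the other intermediate filaments, Nes had an estimate of -1.05 (adjusted p = 0.0678) and Lmna of -0.94 (adjusted p = 0.0678, edgeR), and all 4 LJP mice were below all Vehicle mice for Lmna. The medians in this comparison were 0.28 for the 8 genes, 0.21 for microtubule-associated proteins, -0.04 for tubulins, 0.28 for the scaffold, 0.15 for motors, 0.27 for kinases and phosphatases, -0.24 for calpains and -0.78 for other filaments. Without Vehicle mice 1 and 2 they were -0.004 for the 8 genes, 0.05 for microtubule-associated proteins, -0.15 for tubulins, 0.06 for the scaffold, 0.01 for motors, 0.07 for kinases and phosphatases, -0.24 for calpains and -0.36 for other filaments, again with no gene called. In LJP against Sham, Gfap (3.47), Vim (3.73) and Nes (2.21) rose, Sptbn1 (-0.32) and Gsk3b (-0.36, named after its value was seen) fell and Mapk3 (0.40) rose, with no call among the microtubule-associated proteins, tubulins, motors and calpains in the fit of all mice. With Sham and LJP mice fitted alone, 11 of 18 scaffold genes, 10 of 30 microtubule-associated proteins, 6 of 17 motors and 13 of 22 kinases and phosphatases were called lower, beside the 11.8% of all genes. In the same fit 6 of 13 tubulins, 3 of 7 calpains, 5 of 12 other filaments, 2 microtubule-associated proteins and 1 of the kinases and phosphatases were called higher, beside 12.1% of all genes, and 1 tubulin lower.

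Markers of cell types and regions are given beside the 17.3% of all genes called lower and 22.7% called higher in Vehicle mice, and their part in the results was not tested. Of 19 pan-neuronal genes 8 fell and none rose in Vehicle mice (median -0.48), with the splicing factor Rbfox1 at -0.94 (adjusted p = 0.000907, edgeR). Striatal markers fell in 6 of 6 (median -2.23, Adora2a at -2.67), and their summed level was 1980 to 2285 CPM in Sham, 192.4 to 860.3 in Vehicle and 719.7 to 1265 CPM in LJP mice. Cortical markers were called lower for Neurod6 (-1.06) and higher for Fezf2 (0.46) among 6, with 1 of the 6 lower and none higher without Vehicle mice 1 and 2, and none called with Sham and Vehicle mice fitted alone. Called higher were 7 of 8 microglial (Itgam 2.37), 6 of 7 endothelial (Cldn5 2.00), 5 of 5 red blood cell (Hba-a1 3.63) and 1 of 8 oligodendrocyte markers (Mobp 0.49), 1 of 5 markers of thalamus, brainstem and cerebellum (Prkcd 1.23) and 1 of 3 peripheral nerve markers (Prph). Without Vehicle mice 1 and 2, 2 of 5 red blood cell genes were called higher (median 1.18, against 2.91 in the fit of all mice) and 5 of 7 endothelial markers (median 0.54, against 1.04), and none of the 3 peripheral nerve markers, while the microglial count was again 7 of 8 and the striatal one 6 of 6 lower. Of 8 astrocyte markers, 2 rose, Gfap and Aldh1l1 (the latter named after its value was seen), and Slc1a2 fell (-0.76), and without Vehicle mice 1 and 2 the counts were 4 higher and 1 lower. Choroid plexus genes, none of 5 called in Vehicle against Sham, summed to 31.83 to 903.4 CPM in Sham, 19.59 to 529.4 in Vehicle and 21.79 to 386.2 CPM in LJP mice. In LJP against Sham, 7 of 8 microglial markers were again called higher (3.85% of all genes were), 1 of 6 striatal markers was called lower (Adora2a, -1.39) and no pan-neuronal gene was called, while with Sham and LJP mice fitted alone 6 of the 19 were called lower and 1 higher. That fit also called 6 of 6 striatal markers (median -1.16) and 3 of 5 choroid plexus genes (median -1.85) lower.

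The genes nearest to each of the 8 by their profile over the 12 mice were named by the root mean square (RMS) difference of centred log2 CPM. Ina had the closest partner of all, Eef1a2, the elongation factor form of neurons and muscle, at 0.03, followed by Brsk1 and Ppfia3, a synaptic kinase and a presynaptic scaffold protein. Mapt was nearest to Septin8 at 0.04, then Nrsn1 and Atp2c1, and Rbfox3 to Brsk2 at 0.05, then Mtus2 and Pitpnm3. Map2 was nearest to Akap6 at 0.05, then Tle4 and Tcaf1, Tubb3 to Dgkd at 0.05, then Decr2 and Wipf2, and Nefl to Ttl, the tubulin tyrosine ligase, at 0.07, then Fndc5 and Kctd1. The partners of Nefm and Nefh were farther off. Nefm was nearest to the overlapping A230070E04Rik at 0.10, then Ccdc181 and Foxo6, and Nefh to Fbll1 at 0.12, then Nrsn2 and 9330104G04Rik. Among the 8 themselves the closest pair was Ina and Mapt, at 0.09.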

How the data were processed

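RNA from the ischemic hemispheres of 12 mice was poly(A)-selected, made into libraries with a NEBNext Ultra kit and sequenced. The authors deposited 1 table of raw gene counts with a column for each mouse, and per the labels featureCounts was used for counting and DESeq2 for testing. The submitters' processing notes name both GRCm39 and mm10, and the gene positions of the table match those of RefSeq on GRCm38 for 99.93% of 39756 genes. The aligner, the strand setting and the handling of shared reads are not given in the sources used here. Library totals ran from 17960353 to 22216315 counts, so that 3 counts correspond to 0.135 to 0.167 CPM.

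Counts were analysed with edgeR 4.0.16 in R 4.3.3. Genes were filtered with filterByExpr (17558 kept), scaled by TMM, and fitted with a coefficient per group over all 12 mice by the quasi-likelihood method. Benjamini-Hochberg adjustment was made over all genes tested, with a threshold of 0.05. Intervals cover 95%. Nothing in the labels says more of the separateness of samples than that each is a mouse replicate, so p-values measure the spread between these samples. CPM used TMM-scaled library sizes, and log2 CPM a prior count of 2. Exact permutation tests were two-sided over the 70 splits of 4 against 4, with 0.0286 as the smallest possible p. Ratios were adjusted over 9 tests for those to Nefl and 21 for those to Rbfox3. A ratio could pass this adjustment only if many ratios of its family reached the smallest possible p.

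Alternatives were DESeq2 1.42.0, RLE scaling, library size alone, no low count filter, only the 2 groups compared, a replicate block, the cut-offs of the study (unadjusted p below 0.01 with a change beyond 0.58 on the log2 scale) and leaving out each mouse. Leaving out Vehicle mice 1 and 2 together was added after the data were seen. The 8 genes and all lists were chosen with earlier results of these data known. The genes named were all 8, in each other list the called gene with the smallest p in each direction in Vehicle against Sham and in LJP against Vehicle, all other intermediate filaments tested, and the 3 nearest genes by profile. A gene that this rule names is not reported here. In counts simulated for Vehicle against Sham over 17347 genes, 100 genes were changed by 0.5 and 100 by 1 on the log2 scale. The fit recovered 20% of changes of 0.5 and 60% of changes of 1, and 4 of 84 calls were false. Far fewer genes were changed there than the 7014 called in the data, so these rates are not those of the reported comparison.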

Additional observations from a re-analysis of the deposited data

Results flagged for a closer look

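Dixon's gap ratio was applied to 54 groups of 4 mice (the log2 CPM of the 8 genes and their 10 ratios, in each of the 3 groups), of which chance would flag about 2.7. Both groups past Dixon's critical value were of the heavy chain Nefh. In Sham mice, mouse 1 was the lowest at 6.85 log2 CPM, against 7.004 to 7.033 in the others (gap ratio 0.836). Among Vehicle mice, mouse 2 was the lowest at 5.43 log2 CPM, against 6.63 to 6.88 in the others (gap ratio 0.830). Vehicle mouse 2 was also the lowest of its group in all 8 genes.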

How the results depend on the processing

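Over alternatives other than leaving out a mouse, 166 of 192 fold changes of the 8 genes kept direction and side of the threshold, and over the fits without 1 mouse 262 of 288 did. In Vehicle against Sham, 5 of the 8 genes and 7014 of all genes (3982 higher, 3032 lower) were called. The thresholds of the study's methods gave 2 of the 8 and 3807 of all, and the fit of these 2 groups alone gave 3 of the 8 and 5234 of all (1981 lower). Leaving out 1 mouse gave 3 to 6 of the 8 and 5285 to 8200 of all. With library size alone, 32.67% of calls were lower instead of 43.23%, the median of all genes was 0.08, and Mapt lost its call (adjusted p = 0.0531). In LJP against Vehicle, 4 genes were called, against 2307 by DESeq2, 1223 by the study's thresholds, 593 without the low count filter, 8 without Vehicle mice 1 and 2, 2 with these 2 groups alone and 2 with the replicate block, with none of the 8 in any. Leaving out 1 mouse gave 3 to 3857 of all and 0 to 2 of the 8. The upper ends were reached when Vehicle mouse 3 was dropped, and dropping Vehicle mouse 4 gave 2095. In LJP against Sham, 1 of the 8 and 834 of all were called, against 6 and 4043 with these 2 groups alone, 6 and 4389 without Vehicle mice 1 and 2, 0 and 1036 by the study's thresholds, and 1 and 1454 by DESeq2. Leaving out 1 mouse gave 0 to 4 of the 8 and 393 to 2357 of all. Signs turned for Tubb3 in Vehicle against Sham (0.01) and, in LJP against Vehicle, for Nefh (-0.12), Ina (-0.013) and Tubb3 (-0.064) without Vehicle mice 1 and 2, for Nefm (0.055, range -0.169 to 0.055) when Vehicle mouse 1 was dropped and for Nefh (-0.18, range -0.18 to 0.195) when Vehicle mouse 2 was, and for Tubb3 in LJP against Sham with library size alone (0.006). The cause was not tested. With the replicate number as a block, LJP against Sham called 0 of the 8 and 464 of all, and Nefm had an adjusted p of 0.0849. Same-numbered mice did not deviate together (correlations of -0.32 to 0.11 over 12 pairs, 1 above 0.1, and 4 of 12 mice closest to their own number). The main fit used the numbers only as names of mice. These correlations cannot show whether same-numbered mice shared a cage or surgery day, which the labels do not give.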
